A study of Mus musculus with 24 samples.

Results

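The 8 genes described here are mast cell genes: the granule proteases Cma1, Mcpt4, Tpsb2 and Cpa3, the receptor genes Fcer1a, Ms4a2 and Kit, and Hdc, the enzyme that makes histamine. They are 8 of the 54505 genes in the deposited table and were taken from it by gene name. They were chosen by their FPKM values in these libraries: mast cell markers lay lower in pleural fluid cells of mice given both agents than of mice given LNP-CDN alone. That comparison is therefore given as values with no test. Comparisons that share its libraries are not independent of the choice, whereas the tumor libraries and the fluid libraries given anti-PD-L1 or PBS played no part in it.

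Mast cells are long-lived tissue cells that store proteases and histamine in granules, held there on the proteoglycan serglycin, and release them when antigen cross-links IgE on their surface. Cma1 and Mcpt4 encode chymases, Tpsb2 a tryptase and Cpa3 carboxypeptidase A, and the 4 together mark the connective tissue type of mast cell, which also lives in the pleura and peritoneum of mice. Survival depends on Kit, the receptor for stem cell factor, and IgE is bound by the receptor chains encoded by Fcer1a, Ms4a2 and Fcer1g.

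All mice were of the C57BL/6 strain and carried malignant pleural effusions grown from Lewis lung carcinoma, a mouse lung cancer line. On day 11 they received, into the pleural cavity, LNP-CDN (liposomal nanoparticles carrying cGAMP, an agonist of the STING pathway, at 1 µg), an antibody against PD-L1 at 30 µg, both agents, or phosphate-buffered saline (PBS). On day 13 cells were taken from enzyme-digested pleural tumors and from the pleural fluid, red cells were lysed, and RNA was sequenced. This gave 8 groups of 3 libraries: tumor cells after LNP-CDN, anti-PD-L1, both agents and PBS, and fluid cells after the same 4 treatments. Each library came from an individual mouse, but whether a mouse gave both a tumor and a fluid library is not stated. The labels give neither age nor sex.

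Recovered depth ranged from 14580156 to 26850861 reads per library, and 12202 to 12694 genes per library reached 1 FPKM (fragments per kilobase of gene, scaled to library depth). The Y-linked gene Ddx3y had 21.6 to 23.6 FPKM in fluid after anti-PD-L1 and 0.0283 FPKM or less in the other fluid libraries. Among tumor libraries it had 3.27 to 3.44 FPKM after anti-PD-L1, 3.55 FPKM in PBS replicate 1 and 0.0205 FPKM or less elsewhere. For the fluid anti-PD-L1 group, sex and treatment therefore cannot be told apart. The same holds in tumor between anti-PD-L1 alone and either group given LNP-CDN. Between anti-PD-L1 and PBS in tumor, only PBS replicate 1 separates sex from treatment.

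The 250 bases before the transcription start are shown for the 3 proteases with a RefSeq promoter entry and for Fcer1a, since these genes varied together in fluid. They are from RefSeq, build GRCm38.p6, each printed 5′ to 3′ on the gene's own strand, and all 4 genes lie on the minus strand: Cma1 at chr14:55944676-55944925, Mcpt4 at chr14:56062311-56062560, Cpa3 at chr3:20242182-20242431 and Fcer1a at chr1:173227230-173227479. Capitals mark hexamers that GATA factors bind, namely the word AGATAA, the word AGATAG, the word TGATAA and the word TGATAG, each read on either strand.
Cma1: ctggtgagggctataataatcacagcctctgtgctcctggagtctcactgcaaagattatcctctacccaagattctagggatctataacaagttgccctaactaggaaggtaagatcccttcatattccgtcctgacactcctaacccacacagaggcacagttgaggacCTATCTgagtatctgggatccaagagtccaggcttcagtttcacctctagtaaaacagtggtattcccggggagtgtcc
Mcpt4: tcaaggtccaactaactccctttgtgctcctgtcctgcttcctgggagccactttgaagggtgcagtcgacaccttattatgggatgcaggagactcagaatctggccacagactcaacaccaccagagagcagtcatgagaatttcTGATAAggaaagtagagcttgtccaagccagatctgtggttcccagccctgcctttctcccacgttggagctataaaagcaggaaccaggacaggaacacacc
Cpa3: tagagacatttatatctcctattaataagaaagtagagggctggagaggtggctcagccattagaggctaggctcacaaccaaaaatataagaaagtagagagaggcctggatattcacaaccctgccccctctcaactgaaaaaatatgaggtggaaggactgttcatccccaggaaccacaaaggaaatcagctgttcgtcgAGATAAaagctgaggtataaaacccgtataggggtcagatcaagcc
Fcer1a: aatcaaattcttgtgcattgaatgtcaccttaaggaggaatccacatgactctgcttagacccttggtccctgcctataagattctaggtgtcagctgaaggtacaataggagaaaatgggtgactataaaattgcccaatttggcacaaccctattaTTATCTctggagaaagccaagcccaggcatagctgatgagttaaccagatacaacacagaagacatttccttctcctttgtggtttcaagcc
Each of the 4 held 1 match, beginning at position -79 in Cma1, -103 in Mcpt4, -46 in Cpa3 and -92 in Fcer1a, counted back from the start. RefSeq entries were matched for 7 of the 8 genes. Ms4a2 held 3 matches, Hdc held 1 and Kit held 0, so 6 of 7 had at least 1, and 26.5% of all 32536 RefSeq promoters of this length had at least 1. The hexamers CATGTG and CACGTG, on either strand, which MITF binds, had a match in Fcer1a alone among the 7, and in 17.7% of all promoters.

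The granule proteases stood at low levels in the fluid of PBS mice and were several-fold higher after LNP-CDN. Cma1 (chr14:55941451-55944675, GRCm38 coordinates as in the deposited table) had 3.70, 5.47 and 4.52 FPKM in the LNP-CDN libraries, against 0.302, 0.720 and 0.335 FPKM in the PBS libraries. The groups did not overlap, and the ratio of mean FPKM was 10.1. On the log2(FPKM + 1) scale Cma1 was higher by 1.94 ± 0.18 (SE; adjusted p = 9.11e-05, limma). The LNP-CDN libraries helped to choose the genes, so the adjusted p-values of Cma1, Tpsb2 and Cpa3 against PBS are not independent support for a rise. Differences on this scale understate the change of genes at such low levels.

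Tpsb2 (chr17:25366550-25368094) had 3.91, 4.15 and 4.73 FPKM in the LNP-CDN libraries, against 0.548, 0.665 and 0.788 FPKM in the PBS libraries. Its lowest LNP-CDN library lay far above its highest PBS library, with a ratio of means of 6.39 and a difference of 1.66 ± 0.19 (adjusted p = 0.000225). Cpa3 (chr3:20215620-20242181) had 2.41, 3.20 and 3.41 FPKM after LNP-CDN, from 58 to 84 reads a library, against 0.650, 0.388 and 0.843 FPKM after PBS, from 9 to 21 reads. Cpa3 also did not overlap between the groups, the ratio of means was 4.80 and the difference was 1.30 ± 0.20 (adjusted p = 0.00123).

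Mcpt4 (chr14:56059629-56062313) and Fcer1a (chr1:173221284-173227214) fell below the filter for testing in fluid (3 or more libraries at 1 FPKM or above), so their values carry no adjusted p here. Mcpt4 had 0.683, 1.19 and 0.501 FPKM after LNP-CDN (9 to 18 reads), against 0, 0.177 and 0.220 FPKM after PBS (0 to 4 reads). At the depth of the PBS library with no read, a count of 0 allows up to 0.178 FPKM. Fcer1a, the IgE-binding chain of the receptor, had 1.26, 1.84 and 0.556 FPKM after LNP-CDN (9 to 25 reads), against 0.198, 0 and 0.427 FPKM after PBS (0 to 7 reads), and here the 0 allows up to 0.196 FPKM. Both genes were higher without overlap, with a ratio of means of 6.00 for Mcpt4 and 5.86 for Fcer1a. With no filter on low values, the adjusted p in limma was 0.0303 for Mcpt4 and 0.0440 for Fcer1a. The LNP-CDN libraries helped to choose the genes, so these p-values are not independent support either.

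Of the 8 genes, 5 could be tested in fluid. Cma1, Tpsb2 and Cpa3 passed the filter only through the libraries in which they were high. Kit passed it only with the PBS libraries, in which it was high. For each of these genes, passing was tied to the difference. In LNP-CDN against PBS, 3 of the 5 passed the threshold higher and 2 lower, where 26% of the 13518 genes tested passed the threshold (an adjusted p under 0.05), 13.7% of them higher. Across all 8 genes, 5 were higher without overlap between the groups and 1 was lower, where 23.9% of the genes tested were higher without overlap and 21.8% lower. In bulk RNA, a change in the share of mast cells and a change in RNA per mast cell cannot be told apart.

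**Figure D1:**
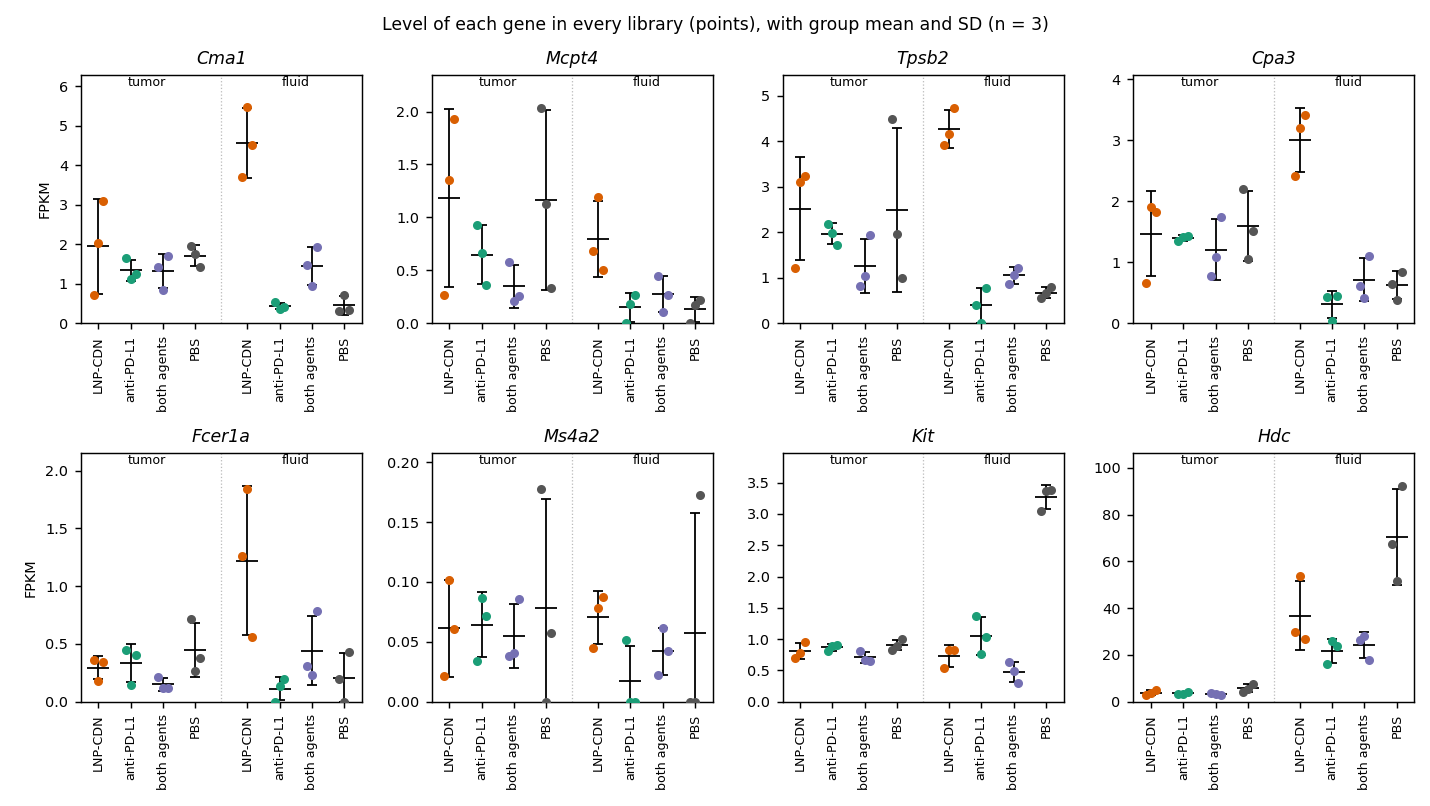
FPKM of each of the 8 genes in every library, with tumor groups left and fluid groups right in each panel; points are libraries, and bars give the group mean and SD (n = 3). In fluid, Cma1, Tpsb2 and Cpa3 stand highest after LNP-CDN, at means of 4.56, 4.26 and 3.01 FPKM, whereas Kit and Hdc stand highest after PBS, at means of 3.27 and 70.4 FPKM.

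Anti-PD-L1 alone left the proteases near or below the PBS level in fluid. Cma1 had 0.531, 0.371 and 0.404 FPKM in the anti-PD-L1 libraries, within the range of the PBS libraries, a difference of -0.01 ± 0.18 (adjusted p = 0.985). Cpa3 had 0.429, 0.0445 and 0.452 FPKM, a difference of -0.32 ± 0.20 (adjusted p = 0.311). Tpsb2 had 0.401, 0 and 0.770 FPKM, and a count of 0 there allows up to 0.187 FPKM. Its difference from PBS was -0.30 ± 0.19 (adjusted p = 0.312). Mcpt4 and Fcer1a were at most 0.265 and 0.196 FPKM in these libraries. The call count for anti-PD-L1 against PBS was 2 of 5 genes tested, Kit and Hdc, both lower, where 13% of all genes passed and 7.49% passed lower. Sex and treatment cannot be told apart in these calls. Kit also passed the filter only with the PBS libraries, in which it was high.

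With both agents, Cma1 and Tpsb2 lay between the LNP-CDN and PBS levels. The 3 comparisons with PBS share the PBS libraries. The libraries given both agents helped to choose the genes, so the adjusted p-values here are not independent support. Cma1 had 1.48, 0.951 and 1.93 FPKM, above every PBS library, and rose by 0.75 ± 0.18 against PBS (adjusted p = 0.0103), with a ratio of means of 3.21. Tpsb2 had 0.862, 1.07 and 1.22 FPKM, also above every PBS library, but its difference of 0.30 ± 0.19 did not pass (adjusted p = 0.254). Cpa3 had 0.614, 0.418 and 1.11 FPKM and overlapped with PBS, at 0.06 ± 0.20 (adjusted p = 0.838). Mcpt4 had 0.448, 0.104 and 0.271 FPKM and Fcer1a 0.311, 0.231 and 0.781 FPKM. Of the 5 genes tested, 1 rose (Cma1) and 2 fell (Kit and Hdc), where 30.1% of all genes passed the threshold, 15.6% higher and 14.4% lower. Without overlap with PBS, 2 of the 8 genes were higher and 2 lower, where 27.5% of the genes tested were higher and 26.7% lower.

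The comparison that chose the genes is described here by its values alone. With both agents against LNP-CDN, the log2 difference was -1.36 for Tpsb2, -1.24 for Cpa3, -1.19 for Cma1 and -0.48 for Mcpt4, and in these 4 genes every library given both agents lay below every LNP-CDN library. The difference was -0.60 for Fcer1a, -0.55 for Hdc, -0.23 for Kit and -0.04 for Ms4a2, with overlap between the groups. The ratio of mean FPKM was lowest for Cpa3, at 0.237, and for Tpsb2, at 0.246. The mean difference over the 8 genes was -0.71. Over all genes tested, 0% passed the threshold in this comparison, and 6.47% were lower and 6.11% higher without overlap.

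Against anti-PD-L1 alone, fluid cells given both agents had higher Cma1, by 0.76 ± 0.18 (adjusted p = 0.00800), and higher Tpsb2, by 0.59 ± 0.19 (adjusted p = 0.0283). Kit was lower, by -0.47 ± 0.14 (adjusted p = 0.0251), and Cpa3, at 0.38 ± 0.20 (adjusted p = 0.155), and Hdc, at 0.14 ± 0.30 (adjusted p = 0.742), did not pass. These 3 of 5 calls stand against 37.3% of all genes, 18.4% higher and 18.9% lower. The libraries given both agents helped to choose the genes, and Cma1 and Tpsb2 passed the filter only through libraries in which they were high. The adjusted p-values here are therefore not independent support. Cma1, Tpsb2 and Fcer1a were higher without overlap, and Kit alone was lower, where 24.5% of all genes were higher and 24.1% lower. Without replicate 3 of the group given both agents, the adjusted p was 0.0822 for Tpsb2 and 0.0816 for Kit, and both calls were also lost without its replicate 2. A pseudocount of 0.1 (adjusted p = 0.0507) or leaving out anti-PD-L1 replicate 2 ended the Tpsb2 call, and leaving out anti-PD-L1 replicate 1 or 3 ended the Kit call. Sex and the absence of LNP-CDN cannot be told apart in this comparison.

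The summed FPKM of the 4 proteases was also taken for each fluid group. It was 12.6 ± 1.71 after LNP-CDN, 3.49 ± 0.996 with both agents, 1.28 ± 0.650 after anti-PD-L1 and 1.88 ± 0.349 after PBS (mean ± SD, n = 3 each). The libraries given both agents, at 2.54 to 4.52, lay below the LNP-CDN libraries, at 10.7 to 14.0, and above the PBS libraries, at 1.50 to 2.19. The distance of both agents from LNP-CDN chose the genes, so it is a description and not independent support. The anti-PD-L1 libraries, at 0.598 to 1.89, overlapped with PBS.

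Kit, the stem cell factor receptor (chr5:75574916-75656722), went the other way from the proteases in fluid. It had 0.531, 0.825 and 0.830 FPKM after LNP-CDN, 1.36, 0.757 and 1.03 FPKM after anti-PD-L1 and 0.627, 0.491 and 0.303 FPKM with both agents, against 3.05, 3.37 and 3.38 FPKM after PBS. Every treated library lay below every PBS library. Kit fell by 1.31 ± 0.14 after LNP-CDN (adjusted p = 0.000208), by 1.07 ± 0.14 after anti-PD-L1 (adjusted p = 0.00194) and by 1.54 ± 0.14 with both agents (adjusted p = 7.50e-05). It passed the filter only with the PBS libraries, in which it was high, so its passing was tied to these falls. The LNP-CDN libraries and those given both agents also helped to choose the genes. These adjusted p-values are therefore not independent support. Mean Kit was 0.223 of its PBS level after LNP-CDN, while mean Cma1 was 10.1 times its PBS level in the same libraries.

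Hdc, histidine decarboxylase (chr2:126593667-126619299), had the highest mean FPKM of the 8 genes in every group. In fluid it had 29.7, 53.6 and 26.8 FPKM after LNP-CDN, 15.9, 25.7 and 23.7 FPKM after anti-PD-L1 and 26.3, 28.1 and 17.8 FPKM with both agents, against 67.3, 51.8 and 92.3 FPKM after PBS. The anti-PD-L1 libraries and those given both agents lay wholly below PBS, whereas LNP-CDN replicate 2, at 53.6, overlapped with the lowest PBS library. The LNP-CDN libraries and those given both agents helped to choose the genes, so their adjusted p-values here are not independent support. Hdc fell by 1.64 ± 0.30 after anti-PD-L1 (adjusted p = 0.00730) and by 1.50 ± 0.30 with both agents (adjusted p = 0.00403). After LNP-CDN it fell by 0.95 ± 0.30 (adjusted p = 0.0382), a call lost with no filter on low values (adjusted p = 0.0875) and without LNP-CDN replicate 1 or 3 or PBS replicate 1 or 3, at an adjusted p of up to 0.139 without PBS replicate 3.

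Ms4a2 (chr19:11615523-11623719), the beta chain of the IgE receptor, was close to absent. It had 0.0449, 0.0784 and 0.0876 FPKM after LNP-CDN and 0, 0 and 0.173 FPKM after PBS in fluid, from 0 to 8 reads, and at most 0.178 FPKM, from 12 reads, in any library. A difference was not detectable at this depth. The gamma chain gene Fcer1g, which is shared with other myeloid receptors, had 661 to 835 FPKM in fluid after LNP-CDN and 534 to 558 FPKM after PBS (adjusted p = 0.193).

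**Figure D2:**
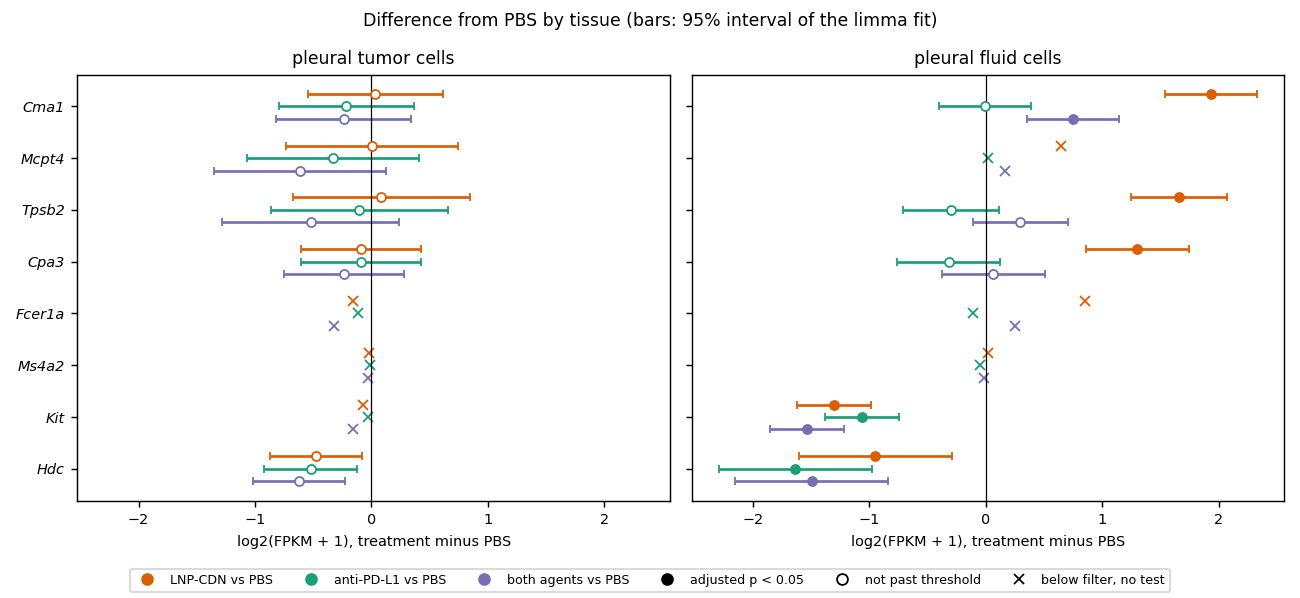
Difference of log2(FPKM + 1) between each treatment and PBS for each gene, tumor cells left and fluid cells right; filled points passed an adjusted p of 0.05, open points did not, crosses mark genes below the filter, and bars are 95% intervals of the limma fit. In fluid after LNP-CDN, Cma1, Tpsb2 and Cpa3 lie at 1.94, 1.66 and 1.30 and Kit and Hdc at -1.31 and -0.95, while in tumor the interval of each protease crosses 0.

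The 8 genes did not move as 1 group in fluid: the proteases and Fcer1a were highest after LNP-CDN, and Kit and Hdc were highest after PBS. Mcpt1 and Mcpt2, markers of mucosal mast cells, and Mcpt9 were listed at 0 in every fluid group. In the tumor libraries Mcpt2 had 0.0362 to 0.362 FPKM, from 1 to 9 reads. Among other connective tissue mast cell genes, Tpsab1 is the second tryptase gene. In fluid it had 0.121, 0.316 and 0.0589 FPKM after LNP-CDN, against 0, 0 and 0.0581 FPKM after PBS. Mrgprb1, a Mas-related receptor gene, had 0.0905, 0.211 and 0.147 FPKM after LNP-CDN, against 0.0157, 0 and 0 FPKM after PBS. Mrgprb2, the mast cell receptor for basic secretagogues, had 0.0911, 0.106 and 0.0594 FPKM after LNP-CDN, from 2 or 3 reads a library, against 0 reads in the PBS libraries. All 3 were below the filter. Tpsb2 and Tpsab1 are close copies, and how reads shared between them were counted is not given in the sources used here.

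Hdc is also made by neutrophils and their precursors and by basophils. The summed FPKM of 8 neutrophil and precursor markers in fluid was 696 to 2537 after LNP-CDN, 574 to 1008 after anti-PD-L1 and 699 to 1633 with both agents, against 3071 to 4844 after PBS, with none of the 8 at 0 in a whole group. Of the 6 markers tested, 2 fell after LNP-CDN, 6 after anti-PD-L1 and 4 with both agents, where 12.3%, 7.49% and 14.4% of all genes were lower in these comparisons. Retnlg, a neutrophil product, averaged 67.3 FPKM after LNP-CDN, 50.7 FPKM after anti-PD-L1 and 56.2 FPKM with both agents, against 489 FPKM after PBS. LNP-CDN replicate 2 was the highest treated library in both Hdc and this sum. The part of neutrophils in the Hdc result was not tested.

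Kit is also carried by blood cell progenitors and erythroid precursors. The summed FPKM of 5 erythroid and progenitor markers in fluid was 3.64 to 4.74 after LNP-CDN, 19.9 to 44.6 after anti-PD-L1 and 2.89 to 3.45 with both agents, against 21.7 to 62.2 after PBS. Alas2, the erythroid enzyme of heme synthesis, made up most of it after PBS and anti-PD-L1, and averaged 0.643 FPKM after LNP-CDN, 27.3 FPKM after anti-PD-L1 and 0.243 FPKM with both agents, against 36.7 FPKM after PBS. Cd34, a progenitor marker that endothelial cells also carry, was higher after LNP-CDN, by 0.58 (adjusted p = 0.00672), and with both agents, by 0.39 (adjusted p = 0.0332). None of the 5 was at 0 in a whole fluid group, and Gata1, Klf1 and Epor averaged at most 0.264 FPKM in any fluid group. Kit fell in all 3 treated groups, while the marker sum of the anti-PD-L1 libraries overlapped with PBS. Their part in the Kit result was not tested. The melanocyte markers Dct, Tyr and Tyrp1 were at 0 in every fluid group.

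Basophils carry Fcer1a, Ms4a2 and Hdc too. The summed FPKM of 5 basophil markers in fluid was 15.3 to 17.5 after LNP-CDN, 5.83 to 9.09 after anti-PD-L1 and 14.4 to 16.1 with both agents, against 9.35 to 10.7 after PBS. Il3ra, which other myeloid cells also express, made up most of it, at 14.4 ± 1.24 FPKM after LNP-CDN and 9.19 ± 0.779 FPKM after PBS. The basophil proteases Mcpt8 and Prss34 and the receptor gene Cd200r3 were at most 0.338 FPKM in any fluid library. Il4, a cytokine of mast cells, basophils and T cells, had 1.70 ± 0.279 FPKM after LNP-CDN and 0.834 ± 0.110 FPKM after PBS and rose (adjusted p = 0.00902). The 2 basophil markers tested, Il4 and Il3ra, both rose after LNP-CDN, where 13.7% of all genes were higher. Il3ra also rose with both agents, where 15.6% were higher, and fell after anti-PD-L1, where 7.49% were lower. Of 5 eosinophil markers, 1 was tested and did not pass in any of the 3 comparisons with PBS.

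**Figure D3:**
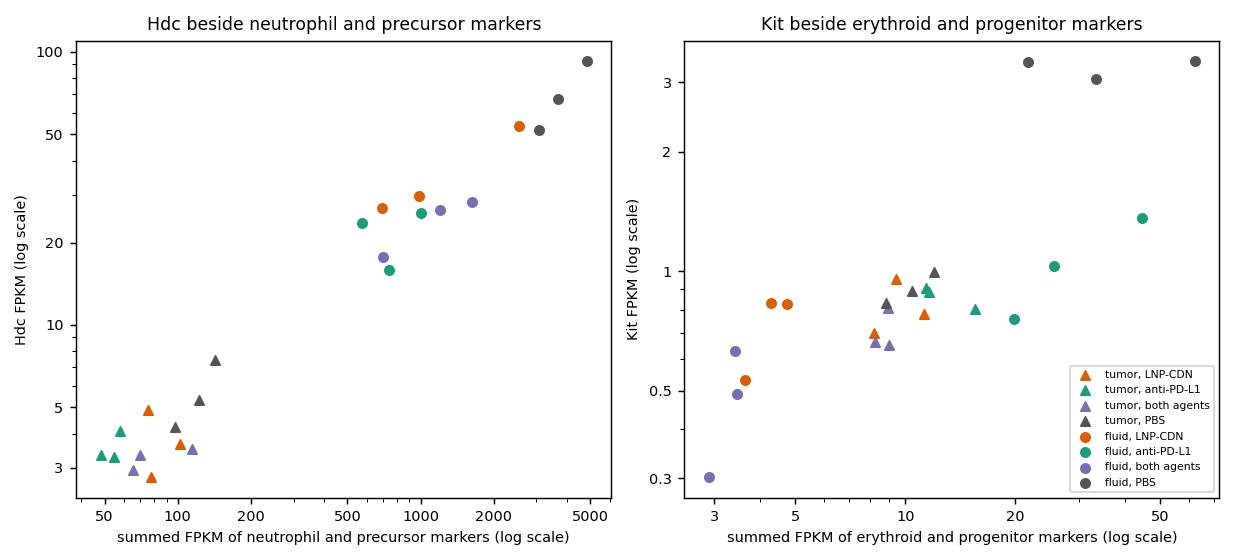
Left, Hdc against the summed FPKM of 8 neutrophil and precursor markers; right, Kit against the summed FPKM of 5 erythroid and progenitor markers; every axis is logarithmic, triangles are tumor libraries and circles are fluid libraries. Hdc lies along a rising band from tumor to fluid, with 2 of the 3 fluid PBS libraries at the top and LNP-CDN replicate 2 beside the third, and the fluid PBS libraries stand at 3.05 to 3.38 FPKM of Kit, above all others.

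In tumor cells, no comparison between treatments called any of the 8 genes. Of the 5 tested (Cma1, Mcpt4, Tpsb2, Cpa3 and Hdc), 0 passed after LNP-CDN, 0 after anti-PD-L1 and 0 with both agents against PBS, where 3.36%, 0% and 1.18% of the 13173 genes tested passed. At an unadjusted p under 0.05, Hdc alone passed, in each of the 3 comparisons, and limma-voom on recovered reads also called 0. Between both agents and anti-PD-L1, and between both agents and LNP-CDN, the count was 0 of 5 as well, against 1.55% (1.16% higher) and 0% of all genes. Between both agents and anti-PD-L1, sex and the absence of LNP-CDN cannot be told apart. Without overlap with PBS, Hdc was lower after anti-PD-L1, where 4.84% of all genes were lower, and Hdc, Kit and Fcer1a were lower with both agents, where 9.91% were. Between both agents and LNP-CDN all 8 genes overlapped, where 8.4% of all genes were higher and 9.22% lower without overlap.

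The tumor proteases spread widely among mice of 1 treatment, and the treatments overlapped in each of them. Cma1 had 0.708, 2.04 and 3.09 FPKM after LNP-CDN, 1.64, 1.12 and 1.25 FPKM after anti-PD-L1 and 1.41, 0.845 and 1.70 FPKM with both agents, against 1.95, 1.76 and 1.42 FPKM after PBS. The LNP-CDN difference was 0.03 ± 0.26, with a 95% interval of 0.58 either side. Tpsb2 had 1.21, 3.11 and 3.24 FPKM after LNP-CDN, 2.19, 1.98 and 1.73 FPKM after anti-PD-L1 and 0.829, 1.03 and 1.94 FPKM with both agents, against 4.48, 1.97 and 0.988 FPKM after PBS. Mcpt4 had 0.268, 1.36 and 1.93 FPKM after LNP-CDN, 0.924, 0.660 and 0.365 FPKM after anti-PD-L1 and 0.583, 0.208 and 0.254 FPKM with both agents, against 2.03, 1.13 and 0.337 FPKM after PBS. LNP-CDN replicate 1 was the lowest of its group in all 4 proteases, and PBS replicate 1, the PBS library with Ddx3y reads, was the highest of its group in all 4. Cpa3 ranged from 0.666 to 2.20 FPKM over the 12 tumor libraries.

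The summed protease FPKM in tumor was 7.12 ± 3.79 after LNP-CDN, 5.35 ± 0.681 after anti-PD-L1 and 4.14 ± 1.32 with both agents, against 6.95 ± 3.33 after PBS (mean ± SD, n = 3 each). None of these neighbours in the order differed beyond its spread. With both agents against PBS, the log2 difference was -0.62 ± 0.34 for Mcpt4 (adjusted p = 0.446) and -0.52 ± 0.35 for Tpsb2 (adjusted p = 0.537). Hdc had 2.78, 3.68 and 4.87 FPKM after LNP-CDN, 3.27, 3.33 and 4.10 FPKM after anti-PD-L1 and 3.52, 3.34 and 2.94 FPKM with both agents, against 4.24, 5.31 and 7.47 FPKM after PBS. Its differences of -0.48 ± 0.18, -0.52 ± 0.18 and -0.62 ± 0.18 in that order did not pass, at adjusted p-values of 0.161, 0.771 and 0.144. Kit stayed within 0.650 to 0.995 FPKM in all 12 tumor libraries, and Fcer1a within 0.115 to 0.711 FPKM.

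Tumor and fluid cells were then compared within each treatment. After PBS, the proteases were higher in tumor cells: Cma1 averaged 1.71 ± 0.270 FPKM in tumor and 0.452 ± 0.232 FPKM in fluid, a log2 difference of 0.91 ± 0.23 (adjusted p = 0.00170). Tpsb2 was higher by 0.94 ± 0.29 (adjusted p = 0.00724), Mcpt4 by 0.86 ± 0.28 (adjusted p = 0.00894) and Cpa3 by 0.66 ± 0.22 (adjusted p = 0.0116). Kit was lower in tumor, by -1.16 ± 0.11 (adjusted p = 1.20e-08), and Hdc by -3.41 ± 0.26 (adjusted p = 4.98e-10), at 5.67 FPKM in tumor and 70.4 FPKM in fluid. All 6 genes tested passed, where 74.8% of the 15222 genes in this fit did. Kit passed the filter only with the fluid PBS libraries, in which it was high. Without tumor PBS replicate 1 the count fell to 3, and the calls for Tpsb2, Mcpt4 and Cpa3 were lost at adjusted p-values of 0.0741, 0.0746 and 0.0724.

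After LNP-CDN, 2 proteases passed in the opposite order, lower in tumor than in fluid. The fluid LNP-CDN libraries helped to choose the genes, so the p-values of the proteases here are not independent support. Cma1 averaged 1.95 ± 1.19 FPKM in tumor and 4.56 ± 0.881 FPKM in fluid, a difference of -0.99 ± 0.23 (adjusted p = 0.000740), and Cpa3 averaged 1.47 ± 0.697 FPKM in tumor and 3.01 ± 0.527 FPKM in fluid, a difference of -0.73 ± 0.22 (adjusted p = 0.00548). The Cpa3 call was lost when libraries were rescaled to total reads (adjusted p = 0.0651) and without tumor LNP-CDN replicate 1 (adjusted p = 0.0543). Tpsb2 was also lower in tumor without overlap, as were 39.6% of all genes, but its difference of -0.64 ± 0.29 did not pass (adjusted p = 0.0554). Mcpt4 had a difference of 0.22 ± 0.28 (adjusted p = 0.485). Hdc was again lower in tumor, by -2.94 ± 0.26 (adjusted p = 3.49e-09), so 3 of 6 passed, against 76.3% of all genes. Fcer1a, not tested, averaged 0.293 FPKM in tumor and 1.22 FPKM in fluid, without overlap.

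After anti-PD-L1 the tissue differences resembled those after PBS in sign for the proteases: 1.13 ± 0.29 for Tpsb2 (adjusted p = 0.00197), 0.89 ± 0.22 for Cpa3 (adjusted p = 0.00139), 0.70 ± 0.23 for Cma1 (adjusted p = 0.0121) and 0.51 ± 0.28 for Mcpt4 (adjusted p = 0.107). The Cma1 call was lost without tumor anti-PD-L1 replicate 1 (adjusted p = 0.0502). Hdc was lower in tumor, so 4 of 6 passed, against 70.7% of all genes. With both agents, Hdc alone passed, at -2.53 ± 0.26 (adjusted p = 3.01e-08), against 76.4% of all genes. Cma1 there averaged 1.32 ± 0.435 FPKM in tumor and 1.45 ± 0.488 FPKM in fluid. Rescaling to total reads moved the median of all genes by 0.305 to 0.335 in these 4 tissue comparisons and called Kit higher in tumor after LNP-CDN and with both agents, and Cpa3 higher with both agents. It turned the sign of uncalled differences in Kit after anti-PD-L1 and in Cma1 with both agents.

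The difference of each treatment's effect between the tissues was tested as an interaction. The LNP-CDN effect was smaller in tumor than in fluid for Cma1, by -1.90 ± 0.33 (adjusted p = 0.000894), for Tpsb2, by -1.57 ± 0.41 (adjusted p = 0.0150), and for Cpa3, by -1.39 ± 0.31 (adjusted p = 0.00574). Mcpt4, at -0.64 ± 0.39, did not pass (adjusted p = 0.295). Kit went the opposite way, with an LNP-CDN effect higher in tumor by 1.23 ± 0.16 (adjusted p = 8.16e-05). These 4 of 6 calls stand against 15.3% of all genes, and the fluid LNP-CDN libraries in them are among those that chose the genes. The Tpsb2 call was lost with a pseudocount of 0.1 (adjusted p = 0.0671).

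For anti-PD-L1, Kit was the only 1 of the 6 to pass, at 1.04 ± 0.16 (adjusted p = 0.000996), against 5.31% of all genes. None of these libraries took part in the choice. In the interaction test of each treatment, however, Kit passed the filter only with the fluid PBS libraries, in which it was high. Its passing was thus tied to the difference. Sex and anti-PD-L1 cannot be told apart in its fluid libraries, and in tumor only PBS replicate 1 separates them. For both agents, Kit also passed alone, at 1.38 ± 0.16 (adjusted p = 2.59e-05), against 15% of all genes. The fluid libraries given both agents helped to choose the genes. Cma1 there, at -0.99 ± 0.33, missed the threshold (adjusted p = 0.0509) and passed with a pseudocount of 0.1 and in limma-voom.

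Among themselves, the proteases varied together in both tissues, in different ways. In tumor, the Pearson correlation of log2(FPKM + 1) with the mean of the other 3 proteases over 12 libraries was 0.88 for Tpsb2, 0.84 for Mcpt4, 0.80 for Cma1 and 0.73 for Cpa3. With each group's mean removed it was 0.87, 0.80, 0.80 and 0.73 in that order, so the shared variation lay between mice of a treatment. In fluid it was 0.96 for Tpsb2, 0.95 for Cpa3, 0.95 for Cma1 and 0.84 for Mcpt4, but 0.40, 0.59, 0.47 and 0.20 once group means were removed. The fluid values thus fell once the distances between groups were taken out, and the distance of 2 of these groups also chose the genes.

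Fcer1a had a correlation of 0.42 with the mean of the 4 proteases in tumor and 0.86 in fluid, or 0.23 in tumor and 0.43 in fluid once group means were removed. Kit had 0.35 in tumor and -0.41 in fluid, and Hdc had 0.24 in tumor and 0.02 in fluid. With group means removed, Kit had 0.32 in fluid, a change of sign, and 0.13 in tumor, and Hdc had -0.01 in both tissues. Kit and Hdc had 0.80 with each other in tumor and 0.74 in fluid, which became 0.86 in tumor and 0.03 in fluid with group means removed. These values are descriptions over libraries that share their treatments and their depth, and no p is given.

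**Figure D4:**
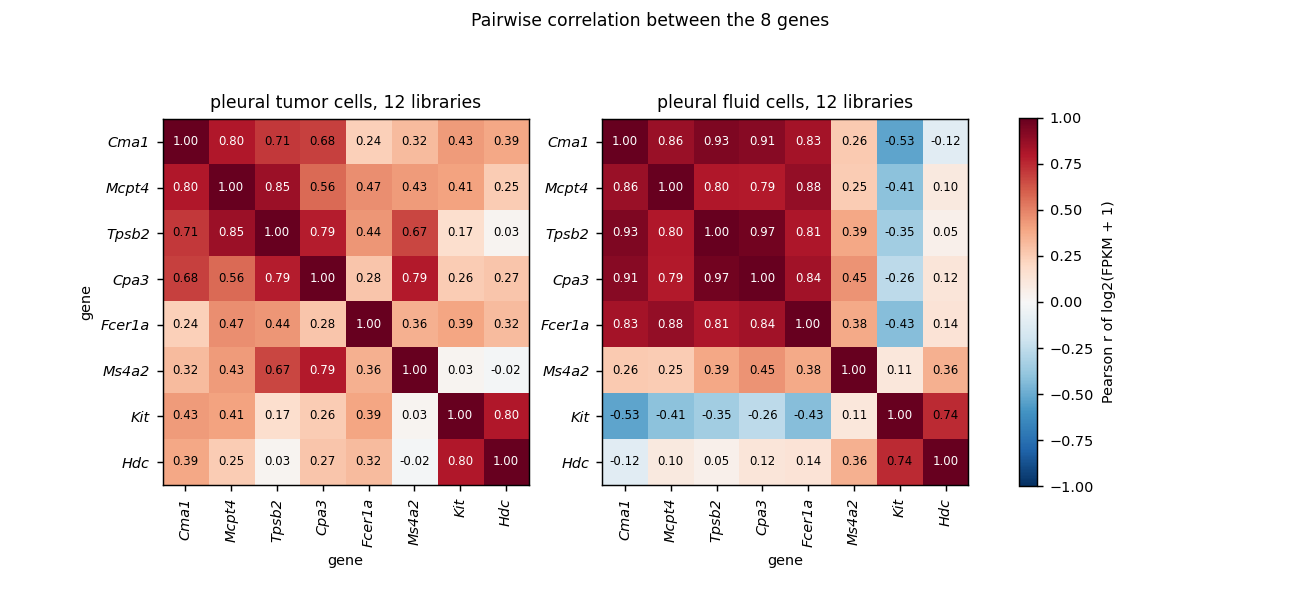
Pearson correlation of log2(FPKM + 1) between each pair of the 8 genes over the 12 tumor libraries, left, and the 12 fluid libraries, right, with colors from blue (-1) to red (1). The 4 proteases form a red block in both tissues, at 0.56 to 0.85 in tumor and 0.79 to 0.97 in fluid, and Kit is negative to each of them in fluid, where it becomes positive, at 0.03 to 0.35, once group means are removed.

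Outside the 8 genes, those most like the mean of the 4 proteases in fluid were Vapa, at a Pearson correlation of 0.93 over 12 libraries, Gm43814, Zbtb48, Cops7b, Hist1h2bc and Ints6, the last at 0.90, among 13525 genes ranked. In tumor they were Dnajb4, at 0.89, Rab4a, Ilkap, Snapc1, Dnajb6 and Ube2w, the last at 0.82, among 13189 genes. The lists of 6 share no gene.

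Cma1 and Mcpt4 lie in the chymase cluster of chromosome 14, 15 genes over 320810 bases that end in the granzymes of cytotoxic lymphocytes. In fluid after LNP-CDN, all 4 genes of the cluster that could be tested rose: Cma1 and the granzymes Gzmb, Gzmc and Gzmd. Of all genes, 13.7% were higher there, and Cma1 was chosen with the help of these LNP-CDN libraries. Gzmb had 39.5, 62.7 and 77.2 FPKM after LNP-CDN, against 7.79, 7.97 and 7.12 FPKM after PBS, a rise of 2.77 ± 0.56 (adjusted p = 0.00549). Gzmc averaged 8.64 FPKM after LNP-CDN and 1.59 FPKM after PBS and rose by 1.91 ± 0.27 (adjusted p = 0.000800). With both agents the same 4 rose against PBS, where 15.6% of all genes were higher, with Gzmb at 59.1, 51.5 and 44.8 FPKM.

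For both agents against LNP-CDN in fluid, the comparison that chose Cma1 and Mcpt4, values of the cluster are given with no test. The log2 difference was -1.19 for Cma1 and -0.48 for Mcpt4, and -0.16 for Gzmb, -0.03 for Gzmc and -0.27 for Gzmd, whose groups overlapped. Cma2 and Gzmn were at 0 in every fluid group, and the basophil protease Mcpt8 and the neutrophil protease Ctsg, which lie between Mcpt4 and the granzymes, were below the filter. In the tryptase cluster of chromosome 17, 6 genes over 76049 bases, Tpsb2 was the only gene tested. In tumor, Gzmc alone of 4 tested rose after LNP-CDN, by 0.89 ± 0.20 (adjusted p = 0.0406), where 1.89% of all genes were higher.

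**Figure D5:**
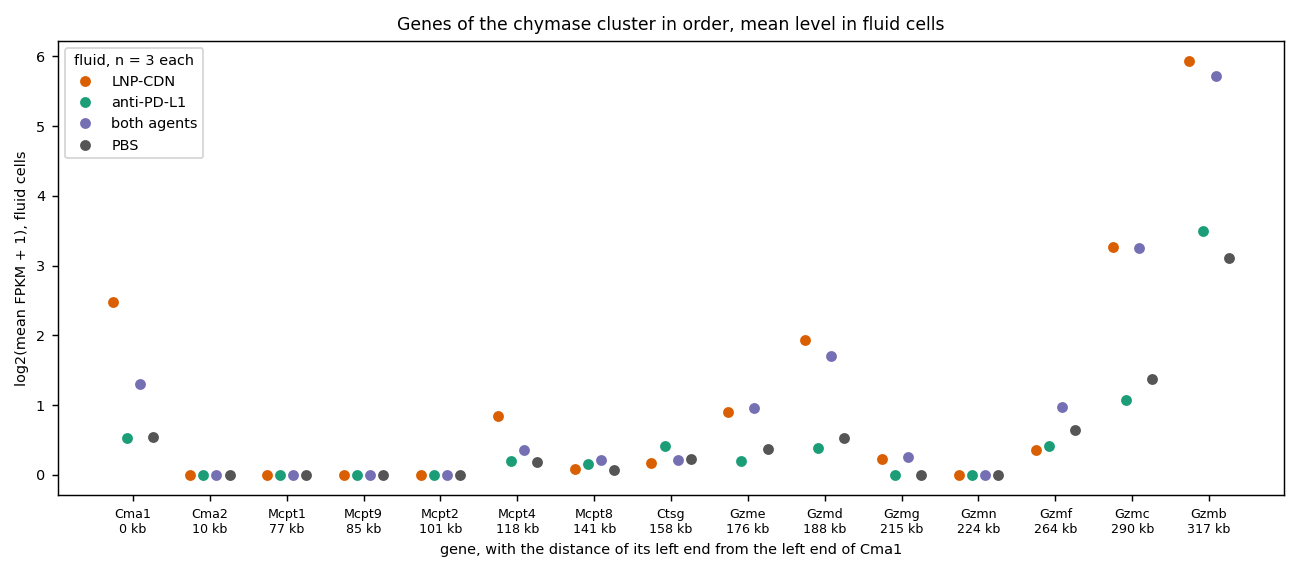
Level of the 15 genes of the chymase cluster in fluid cells, as log2(mean FPKM + 1) of 3 libraries per group, in chromosome order with the distance of each gene from Cma1. Cma1 and Mcpt4 at the left stand highest after LNP-CDN, with both agents next, whereas at Gzmc and Gzmb at the right both agents and LNP-CDN lie close together, with mean Gzmb at 51.8 FPKM with both agents and 59.8 FPKM after LNP-CDN. The distance of both agents from LNP-CDN chose Cma1 and Mcpt4 but not the granzymes, so this contrast is tied to the choice.

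Other mast cell genes, 18 in number, gave 6 that could be tested in fluid. After LNP-CDN 2 rose and 2 fell, where 13.7% of all genes were higher and 12.3% lower, and the median log2 difference was 0.18 over the 6 and 0.00 over all genes. Hpgds, the hematopoietic prostaglandin D synthase, averaged 4.81 FPKM after LNP-CDN and 0.835 FPKM after PBS and rose by 1.67 ± 0.33 (adjusted p = 0.00501). Mitf, a transcription factor of mast cells and macrophages, averaged 15.4 FPKM after LNP-CDN and 9.10 FPKM after PBS and rose by 0.70 ± 0.09 (adjusted p = 0.000386). Ltc4s, leukotriene C4 synthase, averaged 12.9 FPKM after LNP-CDN and 48.6 FPKM after PBS and fell by 1.94 ± 0.38 (adjusted p = 0.00444), and Alox5, the lipoxygenase of leukotriene synthesis, fell by 1.09 ± 0.24 (adjusted p = 0.00826). With both agents the same 4 passed in the same directions, with Hpgds at 4.86 FPKM, close to its LNP-CDN level. After anti-PD-L1, Mitf rose and Adora3, an adenosine receptor gene, fell, where 5.47% of all genes were higher and 7.49% lower.

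In tumor, Il1rl1, the receptor for interleukin 33, was the only 1 of 8 tested to rise after LNP-CDN, at 30.9 FPKM against 21.4 FPKM after PBS (0.51 ± 0.08; adjusted p = 0.0135), and again with both agents (0.41 ± 0.08; adjusted p = 0.0397). In these comparisons 1.89% and 0.881% of all genes were higher. After PBS, Gata2, a mast cell and progenitor transcription factor, was higher in tumor cells, at 5.51 FPKM against 0.604 FPKM in fluid cells, as were Il1rl1, Rab27b and Slc18a2, the last the vesicle monoamine transporter that loads histamine. Alox5, Adora3, Ltc4s and Mitf were lower in tumor, so 4 of 9 were higher and 4 lower, where 37% of all genes were higher and 37.9% lower.

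Of 14 genes below the IgE receptor, Lat2 and Vav1 rose in fluid after LNP-CDN and Lat, Plcg1 and Fyn fell, where 13.7% of all genes were higher and 12.3% lower. Lat, an adaptor shared with T cells, averaged 1.15 FPKM after LNP-CDN and 3.30 FPKM after PBS (-1.02 ± 0.19; adjusted p = 0.00304). With both agents 1 rose and 3 fell, where 15.6% of all genes were higher and 14.4% lower. After anti-PD-L1 1 fell, where 7.49% of all genes were lower. Of 9 genes of stem cell factor and Kit signaling, 2 rose and 1 fell after LNP-CDN, where 26% of all genes passed. The ligand gene Kitl had 4.79 FPKM after LNP-CDN and 3.53 FPKM after PBS in fluid (adjusted p = 0.333), and 26.2 to 30.5 FPKM in every tumor library.

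Of 7 genes of the granule matrix and protease processing, Srgn, the serglycin core protein, was the only 1 to pass in fluid. It averaged 478 FPKM after LNP-CDN, 475 FPKM after anti-PD-L1 and 434 FPKM with both agents, against 732 FPKM after PBS, at adjusted p-values of 0.0374, 0.0492 and 0.0143. In these comparisons 12.3%, 7.49% and 14.4% of all genes were lower. Of 3 genes tested among mast cell cytokines and their receptors, Il33 and Csf2rb fell after LNP-CDN and with both agents, where 12.3% and 14.4% of all genes fell. Il33 was at 6.21 FPKM after LNP-CDN and 3.88 FPKM with both agents, against 11.8 FPKM after PBS. Il3 and Il9, growth factors of mast cells, were at 0 in every fluid group. Of 2 histamine receptor and breakdown genes tested, Hnmt, which inactivates histamine, rose with both agents, where 15.6% of all genes rose. It was at 4.17 FPKM against 2.55 FPKM after PBS (adjusted p = 0.0324).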

How the data were processed

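Poly-A RNA of 24 libraries, 3 per tissue and treatment, was measured by RNA-seq. The authors deposited 1 table of FPKM per gene. Per the submitters' processing notes, fastp, STAR, featureCounts, DESeq2 and build mm9 were named, with no role or version. The coordinates in the table equalled GRCm38 for 53474 of 54383 gene IDs (98.3%), and GRCm38 is the build given here. Per the labels' protocols, libraries were made with a NEBNext Ultra kit from TRIzol RNA.

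Low FPKM values were whole multiples of 1 read, so reads were recovered, with 99.92% to 99.97% of values whole within 0.01 read. Genes with other values were left out (21 in all, none of the 8). The main test was limma 3.58.1 in R 4.3.3 on log2(FPKM + 1), with a trend and two-sided p-values adjusted by Benjamini and Hochberg over all genes tested, at a threshold of 0.05. Genes needed an FPKM of 1 in 3 libraries. Fits within a tissue used its 12 libraries, and tumor and fluid were compared in 1 fit of 24. The method was tested on simulated data. An exact permutation test of 3 against 3 cannot go below 0.1, so single genes were tested only in these fits. The fits were repeated in limma-voom on recovered reads, with a replicate block, with each library left out, after rescaling to total reads, with no filter and with 0.1 as the pseudocount. Bounds for a count of 0 are 3 reads and cover counting error only.

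All 8 genes are named. From each other list, up to 4 genes with the smallest p among those past the threshold are named, and others where their level is described, chosen after their values were seen. The 8 genes and the lists were chosen with earlier results of these data known. A marker gene is not reported here and was left out of its list.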

Additional observations from a re-analysis of the deposited data

Results flagged for a closer look

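For 6 results, the effect of a treatment differed between tumor and fluid cells by the interaction test in limma, with p-values adjusted by Benjamini and Hochberg over all 15222 genes. For LNP-CDN against PBS, the tumor effect minus the fluid effect was -1.90 ± 0.33 for Cma1 (adjusted p = 0.000894), -1.57 ± 0.41 for Tpsb2 (adjusted p = 0.0150) and -1.39 ± 0.31 for Cpa3 (adjusted p = 0.00574) on the log2 scale. The fluid LNP-CDN libraries in these 3 values helped to choose the genes, so their p-values are not independent support. In fluid each of these 3 was higher in 3 of 3 LNP-CDN libraries than in any PBS library, and in tumor the groups overlapped. For Kit the difference of effects was 1.23 ± 0.16 for LNP-CDN (adjusted p = 8.16e-05), 1.04 ± 0.16 for anti-PD-L1 (adjusted p = 0.000996) and 1.38 ± 0.16 for both agents (adjusted p = 2.59e-05). Kit was lower in 3 of 3 libraries of each treated fluid group than in any fluid PBS library. The 3 Kit values share the PBS libraries of both tissues. Kit passed the filter only with the fluid PBS libraries, in which it was high, so its passing was tied to these differences. The fluid libraries given LNP-CDN or both agents helped to choose the genes. For anti-PD-L1, sex and treatment cannot be told apart in the fluid libraries. Of all genes, 15.3%, 5.31% and 15% passed this test for LNP-CDN, anti-PD-L1 and both agents.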

How the results depend on the processing

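Of 87 tested results on the 8 genes, 82 kept their side of the threshold with a pseudocount of 0.1, 84 with no filter, 83 when rescaled to total reads, 86 under the replicate block and 85 in limma-voom, and 0 called values changed sign. Left out 1 at a time, libraries ended 8 calls and added 4. The count with both agents, tumor against fluid, was 1 and became 2 with a pseudocount of 0.1 and in limma-voom, and 3 when rescaled. The count for the difference of the effect of both agents was 1 and became 2 with that pseudocount and in limma-voom. Both agents against anti-PD-L1 in fluid fell to 1 call of 3 with no filter. The mean difference of both agents from LNP-CDN in fluid was -1.19 with a pseudocount of 0.1 and -0.71 with 1. The cause was not tested.

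Without single libraries, counts ranged from 1 to 3 for both agents against anti-PD-L1 in fluid (1 without replicate 2 or 3 of both agents), from 3 to 6 for tumor against fluid after PBS (3 without tumor PBS replicate 1), from 1 to 2 for tumor against fluid with both agents (2 without fluid replicate 1 of both agents), and from 1 to 2 for the difference of the effect of both agents (2 without fluid PBS replicate 2, tumor PBS replicate 3 or fluid replicate 2 of both agents).

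Replicate numbers did not pair the samples. Same-numbered libraries correlated at -0.243 to 0.213 in fluid and -0.195 to 0.125 in tumor after group means were removed, and 5 of 12 and 2 of 12 libraries correlated best with their own number. With the replicate block, 1 call was lost, Hdc after LNP-CDN in fluid (adjusted p = 0.0521), which leaves 4 of 5.

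Mcpt4, Fcer1a and Ms4a2 rest on 0 to 25 reads a library in fluid, so small differences in them were not detectable at this depth. Whether each fluid and tumor library pair came from 1 mouse is not given in the sources used here. Fluid and tumor libraries of the same treatment and number correlated at -0.042 to 0.233 after group means were removed. Tumor PBS replicate 1 had 442 reads of Ddx3y and each fluid PBS library at most 2, so it matched none of them in this marker.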

Other observations

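Fluid cells after LNP-CDN also differed in markers of cells other than mast cells. Kdr, an endothelial receptor, was 1 of 2 endothelial markers to pass and was higher, where 13.7% of all genes were higher. Of 6 fibroblast markers tested, 0 passed after LNP-CDN, where 26% of all genes did. With both agents 4 fell (Pdgfra, Col3a1, Col1a2 and Lum), where 14.4% of all genes fell. Of 5 mesothelial markers 0 passed in either comparison with PBS, where 26% and 30.1% of all genes passed.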
